A study of Mus musculus with 12 samples.

Results

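The genes described here are 10 genes grouped under the name neutrophil granule genes, taken by symbol from the 55487 genes of a gene count table of 12 mouse lungs: *S100a8*, *S100a9*, *Retnlg*, *Ngp*, *Camp*, *Ltf*, *Lcn2*, *Csf3r*, *Mpo* and *Elane*. The name is loose, because *S100a8* and *S100a9* encode proteins of the cytosol and *Csf3r* a receptor. All 10 symbols were found once each, and all 10 were among the 45828 genes that entered the tests. The lungs were whole lungs of C57BL/6J mice taken on postnatal day (PND) 21. Every mouse, control or exposed, was *miR-30a*-/-, a line in which CRISPR removed the whole miR-30a gene, and wild-type lungs were not analysed here. The 4 groups held 3 lungs each: males and females kept in room air, and males and females kept in 95% FiO2 (hyperoxia) from PND 1 to PND 5 and then in room air. Litters were mixed before the pups were assigned to air or oxygen. The question was how far neonatal hyperoxia, in either sex, still showed in the lung on PND 21.

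Neutrophils carry their antimicrobial proteins in granules that are filled in order as the cell matures in the bone marrow. Azurophil granule genes such as *Mpo* and *Elane* are switched on in promyelocytes, specific granule genes such as *Ltf*, *Lcn2*, *Ngp* and *Camp* in the next stages, and transcripts such as *S100a8*, *S100a9*, *Retnlg* and *Csf3r* persist in the mature cell that circulates and enters the lung. Several of these genes are also known targets of the C/EBP, ETS and RUNX factor families in myeloid cells, and some, such as *Lcn2*, are also made by lung epithelium.

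The promoters were read from RefSeq (GRCm38.p6), which held an entry for all 10 genes, and the 250 bases before each start were searched on both strands for 4 motifs. These were TTGCNNAA for C/EBP, GAGGAA for ETS, TGTGGT for RUNX and TATAAA for the TATA box. The C/EBP letters occurred in 5 of the 10 promoters, those of *S100a9*, *Retnlg*, *Ngp*, *Ltf* and *Lcn2*, against 9.56% of 32851 RefSeq promoters of the same length. The ETS letters occurred in 6 of 10, those of *S100a8*, *Ltf*, *Lcn2*, *Csf3r*, *Mpo* and *Elane*, against 23.25% of promoters. The RUNX letters occurred in *S100a9* alone (14.05% of promoters) and the TATA letters in *S100a8* alone (12.4%), where they lay directly beside an ETS match. Both of these *S100a8* matches lay after the start of the gene in GENCODE, which differs from the RefSeq start. The same held for the ETS matches of *Csf3r* and *Lcn2*. The *Camp* window held none of the 4. These matches are letters in a window and say nothing of binding. The stretches printed are examples from the mature cell, specific granule and azurophil genes, 4 with C/EBP letters (*S100a9*, *Retnlg*, *Ngp* and *Ltf*) and 3 without (*Mpo*, *Elane* and *Camp*). No relation between these letters and the counts was tested. Capitals mark motif matches, each sequence runs from 250 bases before the RefSeq start in the direction of transcription, and it ends before the first base of any GENCODE exon. On mm10 the stretches are chr3:90695722-90695971 (minus strand) for *S100a9*, chr16:48872358-48872607 (plus) for *Retnlg*, chr9:110419558-110419746 (plus) for *Ngp*, chr9:111019042-111019270 (plus) for *Ltf*, chr11:87793534-87793580 (plus) for *Mpo*, chr10:79886062-79886246 (plus) for *Elane* and chr9:109849618-109849706 (minus) for *Camp*.
S100a9: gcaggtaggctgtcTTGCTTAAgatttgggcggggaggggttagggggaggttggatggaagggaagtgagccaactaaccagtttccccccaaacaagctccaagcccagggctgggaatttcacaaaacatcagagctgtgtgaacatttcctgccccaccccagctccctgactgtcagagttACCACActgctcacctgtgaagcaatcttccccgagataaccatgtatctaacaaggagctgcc
Retnlg: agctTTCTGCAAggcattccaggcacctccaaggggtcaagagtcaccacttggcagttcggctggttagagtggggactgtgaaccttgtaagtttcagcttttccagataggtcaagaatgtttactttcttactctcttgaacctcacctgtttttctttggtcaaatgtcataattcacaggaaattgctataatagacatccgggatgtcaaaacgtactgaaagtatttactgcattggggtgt
Ngp: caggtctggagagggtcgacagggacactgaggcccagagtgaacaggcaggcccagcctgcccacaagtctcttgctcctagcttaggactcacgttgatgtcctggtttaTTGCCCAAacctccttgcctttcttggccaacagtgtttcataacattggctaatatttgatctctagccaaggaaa
Ltf: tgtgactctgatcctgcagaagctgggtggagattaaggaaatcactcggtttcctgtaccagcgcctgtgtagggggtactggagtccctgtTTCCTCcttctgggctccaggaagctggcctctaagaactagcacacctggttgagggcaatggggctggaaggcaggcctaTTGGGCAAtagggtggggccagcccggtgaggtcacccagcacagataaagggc
Mpo: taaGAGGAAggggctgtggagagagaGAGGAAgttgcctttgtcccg
Elane: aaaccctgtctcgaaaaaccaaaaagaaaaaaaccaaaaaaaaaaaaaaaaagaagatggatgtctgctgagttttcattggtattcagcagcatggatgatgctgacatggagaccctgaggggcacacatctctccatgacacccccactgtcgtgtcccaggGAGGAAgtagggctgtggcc
Camp: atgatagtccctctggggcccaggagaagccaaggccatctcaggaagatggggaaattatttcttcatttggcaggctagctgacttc
In the *S100a9* stretch the C/EBP letters began at position -236 from the RefSeq start, in *Retnlg* at -246, in *Ltf* at -75 and in *Ngp* at -138. A second *Ngp* match began at -11, inside a GENCODE exon, and the *Lcn2* match, TTGCTCAA, began at -216 in an alternative first exon, so neither stretch is printed.

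Gene counts summed to between 8763033 and 16741694 per lung, and a gene at 3 counts, taken as the floor, stood at 0.179 to 0.342 CPM, a floor that covers counting error only. CPM are counts scaled to the upper-quartile normalized library size. *Mir30a* had 0 counts in all 12 lungs, which at this depth does not check the deletion, and *Xist* and *Ddx3y* matched the labelled sex in 12 of 12. Every library also carried reads on olfactory and vomeronasal receptor genes, which are known mainly from sensory neurons of the nose, and whether lung cells express any of them was not tested. The median density on 1490 of these genes, called background here, was 1.59, 1.10 and 1.33 CPM per kb of exon on the raw totals in room air males and 0.837, 1.61 and 1.23 in hyperoxia-exposed males. It was 0.856, 0.681 and 1.27 in room air females and 1.14, 1.33 and 1.49 in exposed females, so the groups overlapped in both sexes and 2 of the 3 exposed females lay above all room air females. In 1 library, room air male 1, skeletal muscle transcripts stood far above the others (729 CPM of *Acta1*, skeletal actin, against 4.77 to 7.48).

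All 10 genes were detected in every lung, from 24 counts (*Camp*) to 1219 (*Csf3r*). Per kilobase of exon, their mean levels over 12 lungs ran from 19.8 ± 4.96 CPM per kb (SD, n = 12) for *Lcn2* down to 3.63 ± 1.01 for *Camp*. Between them came *S100a8* at 18.7, *Retnlg* and *Csf3r* both at 14.1, *S100a9* at 13.4, *Ngp* at 7.74, *Ltf* at 5.04, *Mpo* at 4.11 and *Elane* at 3.92 CPM per kb. The order of neighbours was firm at only a few steps: *S100a9* exceeded *Ngp* in 11 of 12 lungs and *Ngp* exceeded *Ltf* in 10 of 12, whereas *Lcn2* exceeded *S100a8* in 4, *Retnlg* exceeded *Csf3r* in 4 and *Elane* exceeded *Camp* in 6. On this scale the genes of the mature cell and *Lcn2* lay above the azurophil genes and *Camp*, with *Ngp* and *Ltf* between.

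Measured against the background of the same lung, the 10 genes spread over a wide range. The mean density of *Lcn2* was 17.2 times background, and *S100a8* (16.1), *Csf3r* (12.2), *Retnlg* (12.2) and *S100a9* (11.8) were also above 10 times. *Ngp* reached 6.67 and *Ltf* 4.29 times background. *Mpo*, *Elane* and *Camp* reached only 3.45, 3.33 and 3.02 times. All 10 means were above the 99th percentile of the receptor genes themselves, which was 2.47 times background. If background falls on all exons alike, it supplied 5.82% of *Lcn2* reads and 6.22% of *S100a8* reads, but 28.99% of *Mpo*, 30.04% of *Elane* and 33.1% of *Camp* reads. Genes of other tissues stood near the level of the last 3: the medians of lists of thymocyte genes and of cartilage and bone genes were 3.33 and 2.83 times background, whereas a list of lung parenchyma genes had a median of 90.3.

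**Figure D1:**
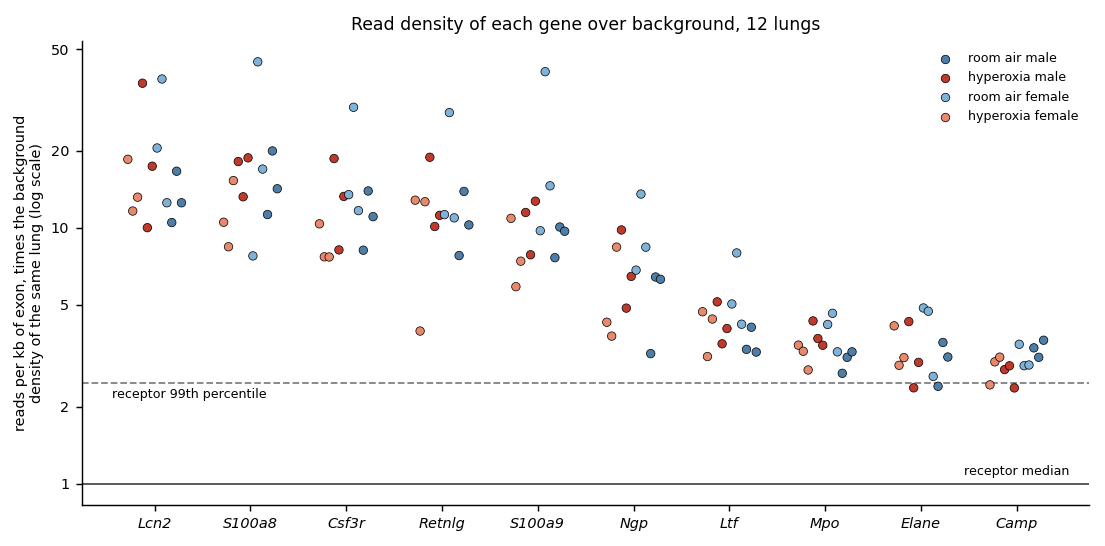
Reads per kilobase of exon in each of 12 lungs, as multiples of the background density of that lung (log axis), for the 10 genes ordered by their median; points are lungs coloured by group, the solid line is the receptor median and the dashed line the 99th percentile of receptor genes at 2.47. *Lcn2*, *S100a8*, *Csf3r*, *Retnlg* and *S100a9* reached up to 44.6 times background, whereas *Camp*, *Elane* and *Mpo* stayed between 2.37 and 4.86.

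After hyperoxia none of the 10 genes was called. Calls required an adjusted p under 0.05 (Benjamini-Hochberg, edgeR's quasi-likelihood test) together with a fold change over 1.5. In the mean of both sexes, 0 of 10 genes passed against 0.0415% of all genes tested (19 of 45828), with a median log2 fold change of -0.011 for the 10 beside 0.031 over all genes. In females 0 of 10 passed against 0.00218% (1 gene), with medians of -0.16 and 0.11. The count over all genes in females depended on the method, at 89 with DESeq2, 1897 to 2087 with RUVr (which removes unwanted variation estimated from residuals) and 0 to 206 with a lung left out. Under each of these 0 of the 10 were called. The paper used RUVr besides upper-quartile normalization, without giving the number of factors, and RUVr was left out of the main fit here. In males edgeR gave 0 of 10 against 0.00% (0 genes), with medians of 0.067 and -0.011. The interaction of sex and hyperoxia gave 0 of 10 against 0.00%, and females against males gave 0 of 10 against 1.22%. Without adjustment, 2 of the 10 had p under 0.05 in females, *S100a9* and *Csf3r*, 2 in the interaction, the same genes, and 0 in males or in the mean of both sexes. The share of all genes with p under 0.05 was 12.6% in females, 8.46% in the interaction, 2.70% in males and 5.198% in the mean of both sexes. Over all genes, 3354 in females had a positive and 2421 a negative log2 fold change at that threshold. The numbers were 412 and 825 in males and 2775 and 1100 in the interaction, all by edgeR. DESeq2's Wald test also called 0 of the 10 in each of the 5 contrasts, and 0 of all genes in males and in the interaction. Directions were not firm either: under at least 1 alternative the sign turned for *S100a8*, *Retnlg*, *Ngp*, *Camp*, *Ltf*, *Lcn2* and *Mpo* in females and for *S100a8*, *S100a9*, *Ltf* and *Csf3r* in males. In bulk lung, fewer neutrophils and less RNA per neutrophil cannot be told apart. The exposure groups did not overlap for 0 of the 10 genes over all 12 lungs (0.216% of genes), for 1 of 10 in females (17.2%) and for 1 of 10 in males (6.62%).

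**Figure D2:**
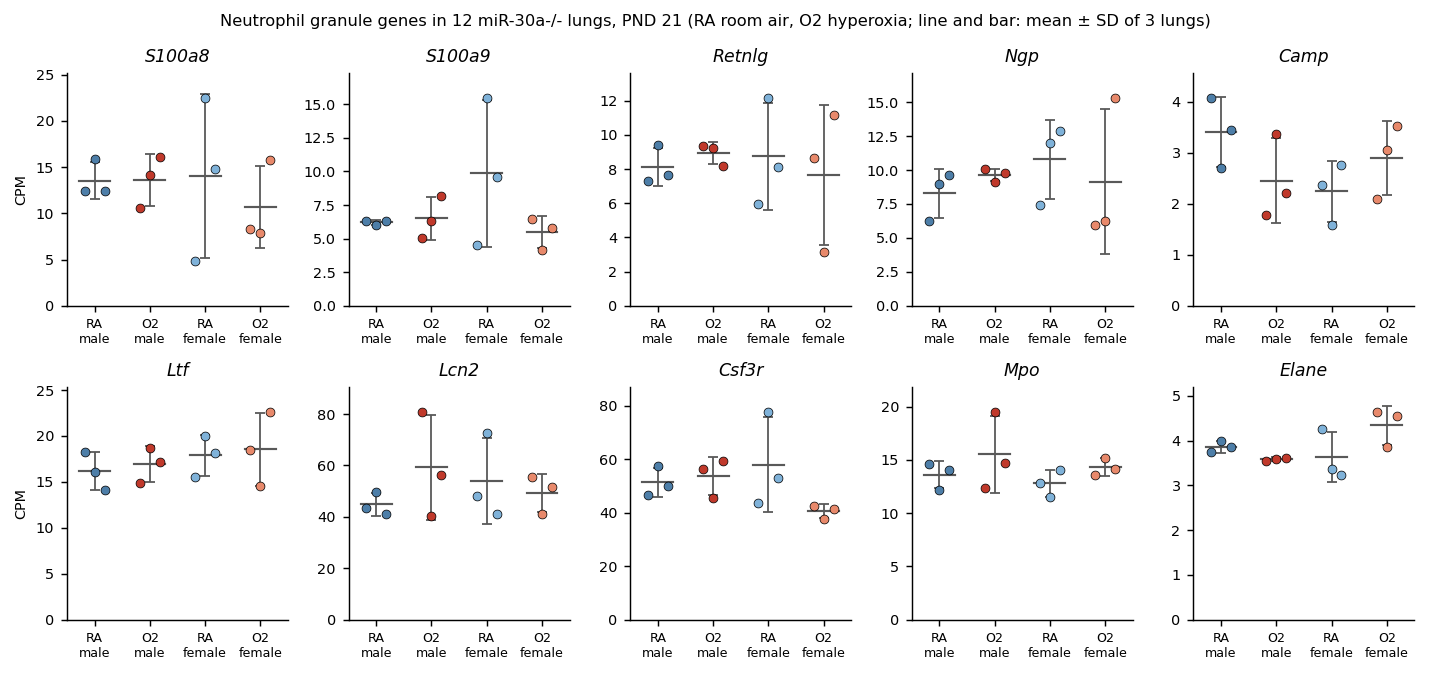
CPM (vertical axes, from 0) of the 10 genes in each lung by sex and exposure; points are single lungs, horizontal lines the mean of 3 lungs and bars the SD. The groups overlapped for every gene except *Csf3r* in females and *Elane* in males, and 1 room air female lung was the highest of 12 for *S100a8*, *S100a9*, *Retnlg* and *Csf3r*.

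*S100a8* (ENSMUSG00000056054, chr3:90668978-90670035, plus strand, 3 exon blocks) and *S100a9* (ENSMUSG00000056071, chr3:90692632-90695721, minus strand, 3 exon blocks) encode the paired calcium-binding proteins of calprotectin, which fills the neutrophil cytosol, and lie as neighbours on chromosome 3. *S100a8* stood at 12.4, 15.8 and 12.4 CPM in room air males, 10.6, 14.2 and 16.1 in hyperoxia-exposed males, 4.81, 22.5 and 14.8 in room air females and 8.31, 7.89 and 15.8 in hyperoxia-exposed females. The groups overlapped in both sexes, and room air females held both the highest and the lowest lung of the 12. The log2 fold change was -0.39 in females (95% interval -1.53 to 0.75) and 0.0081 in males (-1.12 to 1.14), so a 2-fold lower level lay within the interval in both sexes and a 2-fold higher level in males. *S100a9* stood at 6.31, 6.000 and 6.34 CPM in room air males, 5.02, 6.31 and 8.20 in hyperoxia-exposed males, 4.54, 15.5 and 9.56 in room air females and 6.47, 4.14 and 5.76 in hyperoxia-exposed females. In room air males the 3 lungs were nearly alike, whereas room air female 5 stood well above all others, which ranged from 4.14 to 9.56 CPM. The log2 fold change was -0.85 in females (SE 0.29, edgeR adjusted p = 0.347) and 0.068 in males (SE 0.29), and the interaction was -0.92 (SE 0.41, adjusted p = 0.578). Without room air female 5 the female value was -0.35 for *S100a9* and turned to 0.15 for *S100a8*.

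*Csf3r* (ENSMUSG00000028859, chr4:126024550-126044440, plus strand, 17 exon blocks) encodes the receptor of G-CSF, the cytokine that drives neutrophil production. *Csf3r* stood at 46.7, 57.4 and 50.03 CPM in room air males, 56.4, 45.6 and 59.1 in hyperoxia-exposed males, 43.4, 77.5 and 52.9 in room air females and 42.6, 37.5 and 41.3 in hyperoxia-exposed females. In females all 3 exposed lungs lay below all 3 room air lungs, though by less than 1 CPM at the closest pair, and in males the groups overlapped. The log2 fold change was -0.52 in females (SE 0.19, adjusted p = 0.354) and 0.067 in males (SE 0.19). The difference between the sexes was -0.58 (SE 0.27, adjusted p = 0.578). Without room air female 5 the female value was -0.25. Some lists of other cell types also lay lower in exposed females and others higher. All 8 lung parenchyma genes (epithelial and endothelial) had log2 fold changes below 0 there, with a median of -0.50 and 3 at an unadjusted p under 0.05, and so did all 4 B cell genes, with a median of -0.50 and 4 at that p. All 6 airway secretory genes lay below 0 as well, with a median of -0.61 and 0 at that p. All 5 thymocyte genes lay above 0 in females (median 0.35, 2 at that p), as did 5 of 7 skeletal muscle genes (median 0.26) and 4 of 5 cartilage and bone genes (median 0.20), beside a median of 0.11 over all genes. In males the parenchyma, B cell and airway medians were 0.061, -0.019 and -0.056, and none of the genes of these 3 lists was called in either sex. The summed parenchyma level was 5344 to 9819 CPM in room air females and 4903 to 6174 in exposed females, and the summed B cell level 114 to 175 and 91.9 to 123 CPM, overlapping for both, with no gene of either list at 0 counts. The part of these cell types in the female difference was not tested. Of the 50-base exon stretches of *Csf3r* 10.7% also occurred in other genes, so its counts may lack reads placed elsewhere.

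*Retnlg* (ENSMUSG00000022651, chr16:48872621-48874496, plus strand, 4 exon blocks), a resistin-like secreted protein of mature neutrophils, ranged from 3.16 to 12.2 CPM. Its lowest lung was hyperoxia-exposed female 4, at 32 counts, and its highest was again room air female 5. The log2 fold change was -0.18 in females and 0.14 in males, with intervals of -0.78 to 0.41 and -0.46 to 0.74. The female value turned to 0.14 without room air female 5, to 0.17 without exposed female 4 and to 0.19 with the animal number as a replicate block, so no direction in females is read from it.

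Of the specific granule genes, *Ltf* (ENSMUSG00000032496, chr9:111019271-111042767, plus strand, 18 exon blocks) encodes lactoferrin, which binds iron, and it varied least. It ranged from 14.1 to 22.6 CPM with a median of 17.7, and its log2 fold changes were 0.055 in females and 0.062 in males, with all of both intervals within 0.40 on either side of 0. For *Ltf* a change over 1.5-fold therefore lay outside the interval in each sex. *Ngp* (ENSMUSG00000032484, chr9:110419747-110423012, plus strand, 4 exon blocks), the neutrophilic granule protein, ranged from 5.95 to 15.3 CPM, and both extremes were hyperoxia-exposed females: 5.95, 6.21 and 15.3 CPM. Its log2 fold change in the mean of both sexes was -0.0015 (interval -0.40 to 0.40), from -0.23 in females and 0.22 in males. Without hyperoxia-exposed female 5 the female value was -0.82.

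*Lcn2* (ENSMUSG00000026822, chr2:32384633-32388252, minus strand, 5 exon blocks) encodes lipocalin 2, which captures bacterial siderophores. *Lcn2* stood at 43.5, 49.8 and 41.2 CPM in room air males, 80.8, 40.5 and 56.4 in hyperoxia-exposed males, 48.01, 72.7 and 41.2 in room air females and 55.4, 41.1 and 51.5 in hyperoxia-exposed females. Hyperoxia-exposed male 1 and room air female 5 were the 2 highest, and the other 10 lungs lay between 40.5 and 56.4 CPM. The log2 fold change was 0.41 in males (SE 0.22, adjusted p = 0.9998) and -0.13 in females (SE 0.22), and without hyperoxia-exposed male 1 the male value was 0.12. *Camp* (ENSMUSG00000038357, chr9:109847379-109849617, minus strand, 4 exon blocks) encodes cathelicidin, the precursor of an antimicrobial peptide. *Camp* stood at 4.07, 2.70 and 3.45 CPM in room air males, 1.77, 3.37 and 2.22 in hyperoxia-exposed males, 2.37, 1.59 and 2.77 in room air females and 2.10, 3.06 and 3.52 in hyperoxia-exposed females. These levels rest on 24 to 49 counts per lung. The groups overlapped in both sexes, and the log2 fold changes of 0.38 in females and -0.50 in males had intervals of -0.27 to 1.03 and -1.15 to 0.14. The female value was -0.15 with the share of counts on receptor genes as a covariate and 0.17 without room air female 5.

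*Mpo* (ENSMUSG00000009350, chr11:87793581-87804413, plus strand, 15 exon blocks) encodes myeloperoxidase, which makes hypochlorous acid, and *Elane* (ENSMUSG00000020125, chr10:79886247-79888215, plus strand, 5 exon blocks) encodes neutrophil elastase. *Mpo* stood at 14.6, 12.2 and 14.1 CPM in room air males, 12.4, 19.5 and 14.7 in hyperoxia-exposed males, 12.8, 11.5 and 14.1 in room air females and 13.6, 15.2 and 14.2 in hyperoxia-exposed females. Only hyperoxia-exposed male 2, the shallowest library and the one with the highest background density, stood apart. The log2 fold changes in females and males were 0.16 and 0.18 (SE 0.16 and 0.16), and the interaction was -0.015 with an interval of -0.49 to 0.46. Without hyperoxia-exposed male 2 the male value was 0.0031. *Gm11505* lies on the opposite strand and shares 512 exon bases with *Mpo*, and the strand setting of the counting is not given in the sources used here, so their reads cannot be separated. Also 9.46% of 50-base exon stretches of *Mpo* occurred in other genes. *Elane* stood at 3.74, 4.0 and 3.85 CPM in room air males, 3.54, 3.59 and 3.62 in hyperoxia-exposed males, 4.27, 3.37 and 3.24 in room air females and 4.64, 3.85 and 4.55 in hyperoxia-exposed females. Exposed males lay below room air males without overlap, as for 6.62% of all genes, with a log2 fold change of -0.11 (interval -0.60 to 0.39). Exposed and room air females overlapped, and the log2 fold change there was 0.26. *Elane* had the smallest spread of the 10: its coefficient of variation over all 12 lungs was 11.4%, below the 14.7% that counting error alone gives at 33 to 63 counts. For *S100a9* the spread was 43.4% against 11.6% from counting, for *S100a8* 36.2% against 8.60%, for *Csf3r* 21.4% against 4.13% and for *Mpo* 14.6% against 7.67%. The spread exceeded counting error for each of the other 9 genes as well, and a difference between lungs was not detectable for *Elane* at this depth.

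**Figure D3:**
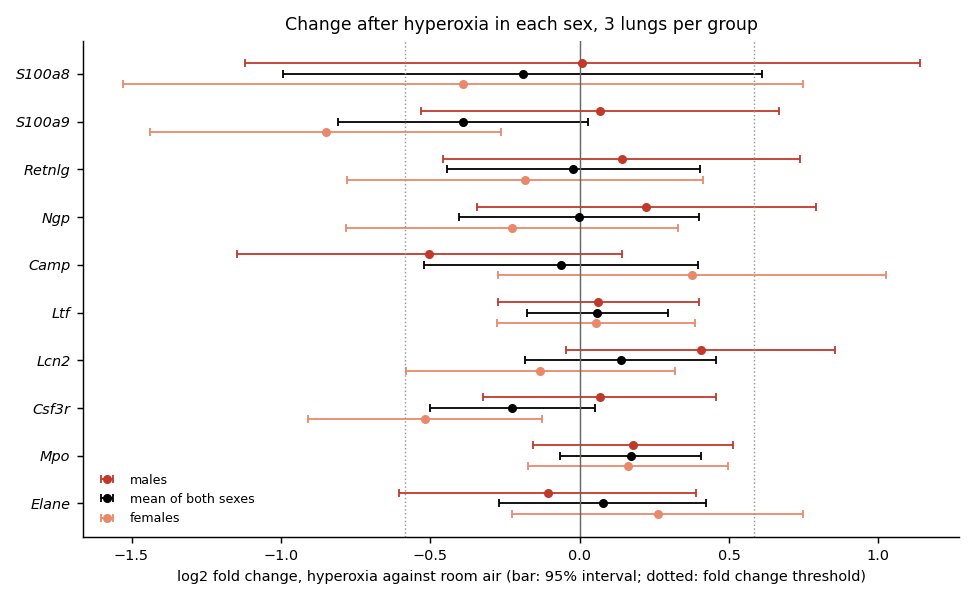
Log2 fold change of hyperoxia against room air for the 10 genes in males, in females and in the mean of both sexes; points are edgeR estimates, bars 95% intervals and dotted lines the 1.5-fold threshold. The interval excluded 0 only for *S100a9* (-0.85) and *Csf3r* (-0.52) in females, neither of which passed adjustment over all genes.

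Room air female 5 was the highest of 12 lungs for *S100a8*, *S100a9*, *Retnlg* and *Csf3r* and the lowest for *Camp* and *Mpo*. The summed CPM of the 10 genes was 249 there and 137 to 205 in the other 11 lungs. This library was also the deepest, had the lowest background density and carried the most airway secretory RNA. Its *Scgb1a1* (club cell secretory protein) was 11066 CPM against 3809.5 to 7048 elsewhere, and its *Muc5b* (airway mucin) 383 against 75.7 to 177. The summed level of the 6 airway secretory genes was 6006 to 11950.0 CPM in room air females, 4274 to 6124 in exposed females, 4818 to 7448 in room air males and 4155 to 6393 in exposed males. None of the 6 was at 0 counts in any lung. The part of depth, background and airway RNA in the female differences was not tested.

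Some red cell genes, which mark another blood cell, did fall. Beside 0.0415% of all genes, 3 of 6 erythroid genes tested were called lower after hyperoxia in the mean of both sexes. These were *Alas2*, of heme synthesis, and the globins *Hba-a2* and *Hbb-bt*. All 6 erythroid genes had log2 fold changes below 0 with a median of -1.20. Their summed level was 5246 to 8138 CPM in room air lungs and 1299.7 to 4800.0 in exposed lungs, without overlap. The summed level of the 10 neutrophil genes was 149 to 249 CPM in room air and 137 to 205 after hyperoxia. The right ventricle was perfused before the lungs were frozen, and how much blood each lung kept was not measured, so the part of retained blood was not tested. Of 6 monocyte genes, all had log2 fold changes below 0 in the mean of both sexes and in males and 5 in females. Only 1 was called, in the mean of both sexes alone (*Plac8*, -0.95, edgeR adjusted p = 0.00689), beside the same 0.0415% of all genes.

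The wider neutrophil programme was read in 5 lists of other genes, 44 of them tested. In each of the 5 contrasts 0 of the 44 were called by edgeR, beside 0.0415% of all genes in the mean of both sexes. By unadjusted p under 0.05, 4 of 44 passed in the mean of both sexes (5.198% of all genes), 6 in females (12.6%), 2 in males (2.70%), 3 in the interaction (8.46%) and 4 between the sexes (6.88%). The 6 azurophil and precursor genes were 0.0062 to 0.39 in the mean of both sexes, with *Gfi1* and *Cebpe* (transcription factors of granulocyte maturation) at 0.061 and 0.39, *Fcnb* (ficolin B) at 0.0062 and *Prtn3* (proteinase 3) at 0.23. Their adjusted p were 0.958, 0.927, 0.998 and 0.927. Of the list, 5 of 6 lay above 0 in females (median 0.092) and 4 of 6 lay above 0 in males (median 0.14). Like *Mpo* and *Elane*, this list lay low, at a median of 3.51 times background.

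Of the 8 specific and gelatinase granule genes, *Chil3* (a chitinase-like protein that alveolar macrophages also make) was the most abundant at 126 ± 65.8 CPM (SD, n = 12), with a log2 fold change of 0.53 (SE 0.35, adjusted p = 0.927) in the mean of both sexes. In males *Chil3* was 53.5 to 107 CPM in room air and 126 to 225 after hyperoxia, without overlap (6.62% of all genes), at a log2 fold change of 1.07 (SE 0.50, adjusted p = 0.9998). In females it was 75.03 to 248 and 92.3 to 212 CPM, at -0.021, and the interaction was -1.10 (SE 0.70, adjusted p = 0.584). *Mmp9* (gelatinase B) stood at 24.97 ± 2.58 CPM, *Itgb2l* at 19.3 ± 1.19 CPM and *Cd177* (a neutrophil surface glycoprotein) at 17.8 ± 2.38 CPM. Their log2 fold changes were -0.0045, 0.067 and 0.080 in the mean of both sexes, and none passed the test. Of the list, 4 of 8 lay above 0 in females and 6 of 8 in males.

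The 10 surface receptor genes hold the markers by which a mature neutrophil is usually told. *Ly6g*, named here as the defining marker and not for its level, stood at 4.73 ± 0.903 CPM or 4.21 times background, with 37 to 73 counts per lung. *Cxcr2* (receptor of neutrophil-attracting chemokines) was at 12.4 ± 2.11 CPM, *Clec4e* (the C-type lectin Mincle) at 10.6 ± 2.19 CPM (only 1.81 times background, below the 2.47 of the 99th percentile of receptor genes), *Trem1* (an amplifier of inflammatory signals) at 9.47 ± 1.46 CPM and *Fpr1* (formyl peptide receptor) at 8.82 ± 2.10 CPM. *Mrgpra2a* and *Mrgpra2b*, near-identical copies whose reads the counting may split, were at the background itself, 0.907 and 1.07 times, and were named for that after their values were seen. Log2 fold changes were -0.027 for *Cxcr2*, -0.26 for *Clec4e*, 0.062 for *Trem1* and 0.12 for *Fpr1* in the mean of both sexes. Of the list, 7 of 10 lay above 0 in females (median 0.066) and 8 of 10 lay above 0 in males (median 0.043).

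Among the 9 cytosolic genes tested, *Hdc* (histidine decarboxylase, also made by mast cells and basophils) was the one whose exposure groups did not overlap over all 12 lungs, as for 0.216% of all genes. Its log2 fold change was -0.44 (SE 0.11, adjusted p = 0.255), and -0.57 in females and -0.31 in males. *Il1b* (interleukin 1 beta) was at -0.34 in the mean of both sexes and at -0.69 and 0.013 in females and males (adjusted p = 0.927, 0.317 and 0.9998), and *Padi4* (the citrullinating enzyme of neutrophil extracellular traps) at -0.014 in the mean of both sexes. Of the list, 6 of 9 lay above 0 in females (median 0.061) and 4 of 9 lay above 0 in males (median -0.018). *Stfa2*, a stefin of a family of near-identical copies that was named after its values were seen, had 13 to 36 counts per lung. *Stfa2* was 0.880 to 1.66 CPM in room air females and 1.68 to 3.06 in exposed females, without overlap, as for 17.2% of all genes there. The log2 fold change in females was 0.94 (SE 0.35, edgeR adjusted p = 0.354). In males the groups overlapped, at 1.65 to 2.33 CPM in room air and 1.62 to 2.66 after hyperoxia. *Asprv1* was 89.6 CPM in room air male 1, the lung with muscle RNA, and 4.19 to 7.95 elsewhere.

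Of the 11 ligands, *Cxcl12*, which holds neutrophils in the marrow, was by far the most abundant at 153 ± 43.2 CPM, and *Ppbp*, a platelet chemokine, followed at 12.8 ± 3.97 CPM. *Tnf* stood at 8.94 ± 1.21 CPM. *Cxcl3*, with 6.27 ± 0.976 CPM over long exons, was at 1.51 times background, below the 99th percentile of receptor genes, and 66.4% of its reads would be background. The list as a whole lay near background, at a median of 1.94 times, and 5 of its 11 genes were above that percentile. *Csf3*, which encodes G-CSF, had 49 to 110 counts per lung and a log2 fold change of 0.18 in the mean of both sexes. In females *Csf3* was 4.33 to 5.08 CPM in room air and 5.76 to 7.40 after hyperoxia, without overlap, with a log2 fold change of 0.43 (adjusted p = 0.409), as 17.2% of all genes did not overlap there. In males *Csf3* was 5.22 to 8.83 and 5.33 to 7.38 CPM, at -0.064. Of the 11 ligands 9 had log2 fold changes above 0 in females, with a median of 0.38 beside 0.11 over all genes, and 5 in males, with a median of -0.055, and none was called. Background density was 0.856, 0.681 and 1.27 CPM per kb in room air females and 1.14, 1.33 and 1.49 in exposed females, and its part in these values was not tested. In the mean of both sexes the 4 ligands with the highest CPM were at -0.19 (*Cxcl12*), 0.16 (*Ppbp*), 0.14 (*Tnf*) and -0.030 (*Cxcl3*). *Csf3* was named as the ligand of *Csf3r* and not by its level.

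**Figure D4:**
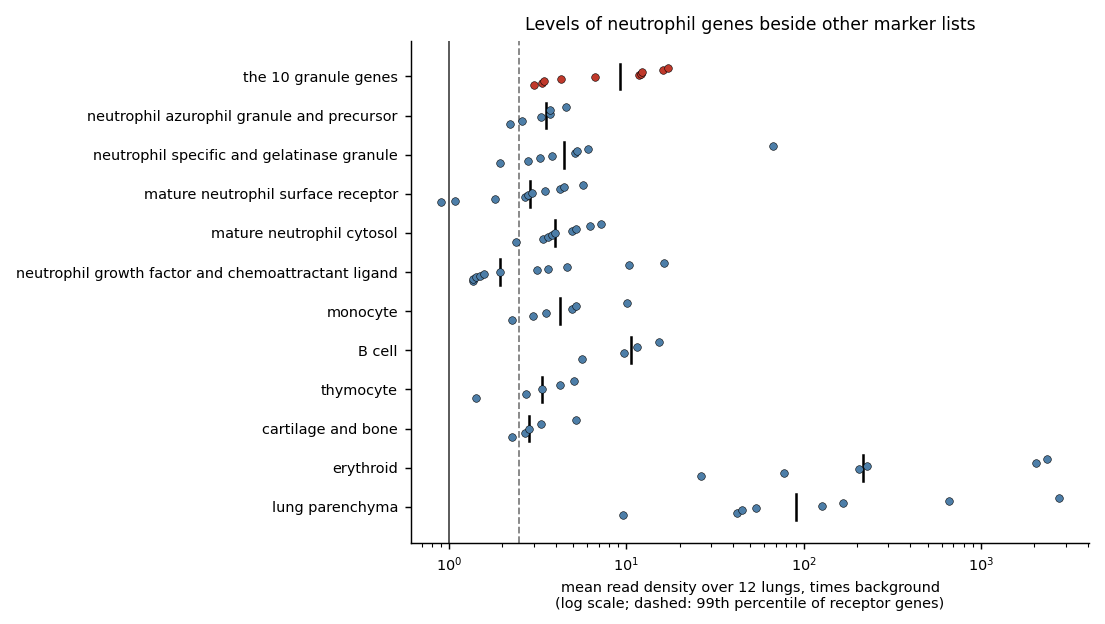
Mean read density over 12 lungs as a multiple of background (log axis) for the 10 genes (red, labelled as granule genes) and lists of neutrophil and other cell type genes (blue). Points are genes, black ticks list medians and the dashed line the 99th percentile of receptor genes. The 10 genes had a median of 9.24, the 5 neutrophil lists medians of 1.94 to 4.47 and the erythroid list 216.

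Across the 12 lungs the 10 genes did not vary as one. Over the 45 pairs of log2 CPM, Pearson's r was highest for *S100a9* with *Csf3r* (0.79, Spearman's rho 0.58, permutation adjusted p = 0.0846 and 0.214) and for *S100a8* with *S100a9* (0.74, rho 0.62, permutation adjusted p = 0.126 and 0.214). Without the 2 lungs farthest from the median of the first gene, r fell from these values to 0.36 and 0.59. *S100a8* also had r of 0.66 with *Retnlg* and 0.65 with *Ngp*, which neither fell much without 2 lungs (0.63 and 0.71) nor passed adjustment (permutation adjusted p = 0.126 for both). The 1 pair that passed over the 12 lungs was *Camp* with *Lcn2*, and it was negative: r = -0.84, rho = -0.71, permutation adjusted p = 0.0279 for r and 0.214 for rho, and r = -0.64 without 2 lungs. *Camp* and *Ngp*, specific granule genes that with *Ltf* lie on chromosome 9, had r of -0.11, and *Mpo* and *Elane*, both azurophil genes, -0.065. Taken as deviations from the group means, an alternative chosen after seeing the data, 11 pairs passed. The positive ones were *S100a8* with *S100a9* (r = 0.87, permutation adjusted p = 0.0105), *Csf3r* (0.73), *Ngp* (0.71) and *Ltf* (0.69), *Csf3r* with *S100a9* (0.79) and *Lcn2* (0.74), *Retnlg* with *Ltf* (0.76) and *Camp* with *Mpo* (0.87). The negative ones were *Lcn2* with *Mpo* (-0.92, permutation adjusted p = 0.00045), the strongest of the 11, *Camp* with *Lcn2* (-0.85) and *Camp* with *Csf3r* (-0.72). These p come from shuffling all 12 deviations, although 4 group means were taken from them, and are therefore too small. The labels give no library batch within which the pairs could be compared.

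*Camp* and *Mpo* varied with the background of the library. Over 12 lungs, log2 CPM correlated with the log2 background density at r = 0.89 (rho 0.89) for *Camp* and 0.79 (rho 0.87) for *Mpo*, with permutation p adjusted over 10 genes of 0.0006 and 0.0071 for r and 0.0027 and 0.0029 for rho. Without the 2 lungs farthest from the median background, r was 0.77 and 0.70. *Lcn2* ran the other way at -0.76 (rho -0.73, permutation adjusted p = 0.018 and 0.0334), with -0.41 without 2 lungs. As deviations from the group means, r with background was 0.93 for *Camp*, 0.89 for *Mpo* and -0.87 for *Lcn2*. For *Csf3r* r was -0.61 (rho -0.54, permutation adjusted p = 0.0891 and 0.185), with -0.13 without 2 lungs and -0.58 as deviations from the group means. For *S100a8* r was 0.073, for *S100a9* -0.32, for *Retnlg* -0.22, for *Ngp* -0.12, for *Ltf* 0.18 and for *Elane* 0.16, none of which passed. The part of background in these pairs was not tested.

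**Figure D5:**
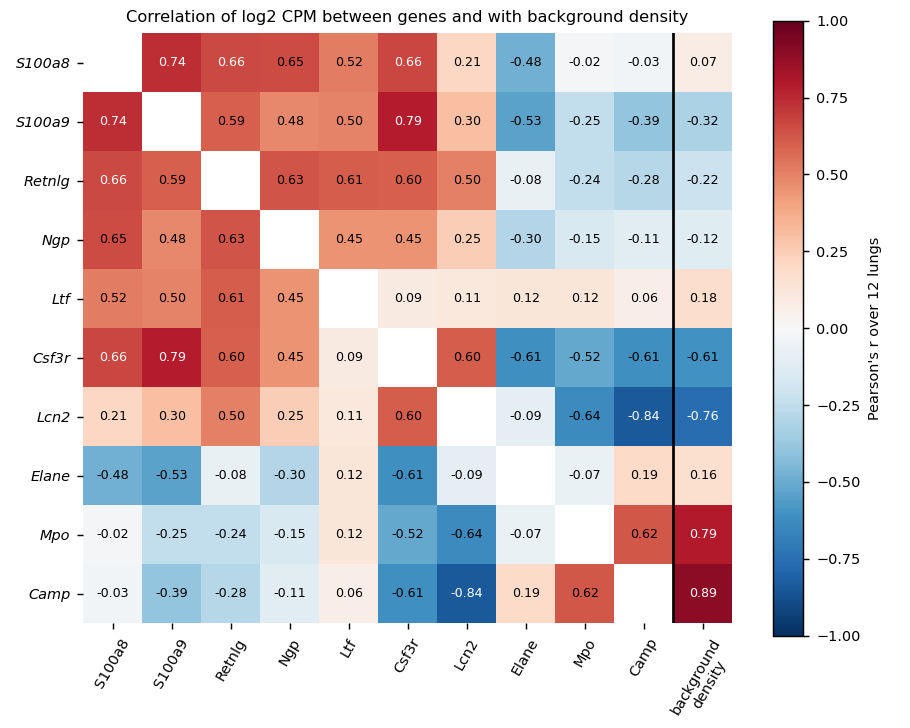
Pearson's r of log2 CPM over 12 lungs for each pair of the 10 genes, with the correlation to the log2 background density in the last column (red positive, blue negative). *S100a8*, *S100a9*, *Retnlg*, *Ngp* and *Csf3r* were positive with one another (0.45 to 0.79), and *Camp* and *Mpo* were positive with each other (0.62) and with background (0.89 and 0.79).

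Against the mean log2 CPM of the other 9 genes, *S100a8* had the highest r (0.84), followed by *Retnlg* (0.78), and *Csf3r* and *Lcn2* had 0.58 and 0.18, whereas *Camp*, *Mpo* and *Elane* were negative (-0.33, -0.21 and -0.40). Outside the lists, the 5 genes with a mean of at least 1 CPM whose log2 CPM was most like the mean of the 10 were *Gm25757* (r = 0.86 over 12 lungs), *Ccr1* (0.85), *Gm18623* (0.83), *Gm5* (0.82) and *Gm5231* (0.82). They were picked as the highest, so these values are a description only. *Ccr1*, a chemokine receptor, had a mean of 7.26 CPM.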

How the data were processed

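RNA-Seq of 12 *miR-30a*-/- lungs was analysed in 4 groups of 3, taken from the sample titles, which number the animals, and the characteristics. The deposited values are raw featureCounts counts per gene, not normalized, which the authors made from trimmed (trim galore) reads aligned to mm10 by STAR. The library kit is given as QIAseq Stranded Total RNA in the methods and as NEBNext Ultra II Directional with rRNA depletion in the labels, and the strand setting of the counting is not given in the sources used here. All value columns were matched to a sample (0 left over). Exon lengths and positions came from GENCODE mouse release 21 (55227 of 55487 genes matched).

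Counts were fitted with edgeR 4.0.16 in R 4.3.3 (robust quasi-likelihood, upper-quartile normalization, 45828 genes kept by filterByExpr, 4 group coefficients), with Benjamini-Hochberg adjustment over all genes. Its biological coefficient of variation was 0.177. Log2 CPM used a prior count of 2, and DESeq2 1.42.0 was an alternative. Depth was 8763033 to 16741694 counts, so the floor of 3 counts was 0.179 to 0.342 CPM. Background is the median over 1490 olfactory and vomeronasal receptor genes of reads per kilobase of exon. Correlations used 100000 permutations over the lungs, two-sided. On simulated data of 45828 genes, the fit called 86 of 100 genes changed by 1 on the log2 scale and 99 of 100 changed by 2 for the mean of both sexes (9 false calls), 55 and 95 in females (10 false) and 52 and 90 in males (4 false). The simulation changed randomly picked genes above 1 CPM, at the dispersion of the fit and with no outlying lung added. These rates may not hold for genes as variable as *S100a8*. RUVr was coded from its description, on deviance residuals.

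The 10 genes and the lists were chosen with earlier results of these data known. Named besides the 10 were, from each of 5 neutrophil lists, the 4 genes with the highest mean CPM and any called, besides *Ly6g*, *Csf3*, *Stfa2*, *Mrgpra2a* and *Mrgpra2b*, which the rule did not pick, and the 5 genes outside the lists most like the mean of the 10. Wild-type lungs were not analysed here. 1 gene of the erythroid list is not reported here.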

Additional observations from a re-analysis of the deposited data

How the results depend on the processing

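None of the 10 genes was called in any contrast under any alternative, which were TMM normalization, DESeq2, RUVr with 1 to 3 factors, other filters, both treatments of background, smaller sets of lungs, the replicate block and each lung left out in turn. Of 690 log2 fold changes under alternatives, 53 had the other sign, 33 of them with a lung left out, and none was called. The values of the other sign were, with 1 RUVr factor, 0.0016 for *Ngp* in the mean of both sexes; with 2 RUVr factors, 0.026 for *Ngp* in the mean of both sexes; with 3 RUVr factors, 0.016 for *Ngp* in the mean of both sexes; on genes with at least 10 counts in every lung, 0.013 for *Retnlg* and 0.029 for *Ngp* in the mean of both sexes; with background subtracted, 0.064 for *Retnlg* and 0.080 for *Ngp* in the mean of both sexes, 0.019 for *Retnlg* and 0.10 for *Lcn2* in females and -0.022 for *S100a8* in males; with the receptor share as covariate, 0.053 for *Retnlg* in the mean of both sexes and 0.010 for *Retnlg*, -0.15 for *Camp*, -0.039 for *Ltf*, 0.37 for *Lcn2* and -0.10 for *Mpo* in females; with DESeq2's Wald test, -0.048 for *Ltf* in females. With a lung left out, other signs arose for some genes, and the values ran as follows. In the mean of both sexes these ranges were -0.19 to 0.034 for *Camp*, -0.21 to 0.16 for *Retnlg*, -0.30 to 0.12 for *Ngp*, -0.39 to 0.080 for *S100a8*, -0.0057 to 0.28 for *Lcn2* and -0.023 to 0.13 for *Ltf*. In females these ranges were -0.11 to 0.20 for *Ltf*, -0.80 to 0.15 for *S100a8*, -0.55 to 0.17 for *Retnlg*, -0.30 to 0.14 for *Lcn2* and -0.82 to 0.0060 for *Ngp*. In males these ranges were -0.14 to 0.17 for *S100a8*, -0.024 to 0.16 for *Ltf*, -0.14 to 0.24 for *S100a9* and -0.0047 to 0.18 for *Csf3r*. The cause was not tested. Without room air female 5 the female value of *S100a9* was -0.35, and over the lungs left out it ran from -1.19 to -0.35. Adjusted p fell under 0.05 for *Lcn2* alone, at a fold below the threshold: 0.31 on the log2 scale with the receptor share as covariate in the mean of both sexes (adjusted p = 0.0351, against 0.934 in the main fit), and 0.35 in males with 2 or 3 RUVr factors (adjusted p = 0.0268 and 0.019).

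Animal numbers 2 and 5 occur in both female groups and number 1 in both male groups. The deviations of the female lungs that share a number correlated at 0.060 and -0.17. These 2 values cannot show whether such lungs share more than a number, and the male lungs were not checked. With the replicate block the females gave 1 call, none of the 10 genes, and the log2 fold change was 0.053 for *S100a8*, 0.19 for *Retnlg* and 0.043 for *Ngp*. Over all genes the number called moved more. In the mean of both sexes (19) it was 40 with DESeq2, 86, 125 and 135 with 1 to 3 RUVr factors, 10 with background subtracted and 3 to 37 with a lung left out. In females (1) it was 89 with DESeq2, 1897, 1965 and 2087 with RUVr, 0 with TMM, 0 with background subtracted, 8 with no filter, 22 with the receptor share, 80 with only the 6 female lungs and 0 to 206 with a lung left out. In males (0) it was 18, 107 and 116 with RUVr, 6 with the receptor share, 2 with only the 6 male lungs and 0 to 1 with a lung left out. The interaction (0) gave 2152, 2332 and 2478 with RUVr. Females against males (559) gave 1006, 1060 and 1111 with RUVr, 266 with at least 10 counts, 1004 with no filter and 977 with the receptor share. The number of correlated pairs (1 of 45) was 1 with TMM, 0 by rank and 11 for deviations from group means, alternatives chosen after seeing the data. Depth limits *Camp* and *Elane* most, at 24 to 63 counts per lung.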
